A study of Homo sapiens with 4 samples.

Results

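The mRNAs of histones, the proteins that package DNA into nucleosomes, were followed across 4 RNA immunoprecipitation libraries. Members were all symbols of the clustered replication-dependent genes (H2AC, H2BC, H3C, H4C and H1 series), of the variants H3-3A, H3-3B, H2AZ1, H2AZ2, MACROH2A1, MACROH2A2 and H1-10, and of H2AX, H2AJ and H4-16, with the entries of a symbol added up. This gave 51 of the 12838 symbols in the table: 41 clustered genes, of 69 that RefSeq lists, 7 variants, the 2 genes H2AX and H2AJ, which lie outside the clusters, and H1-7, a testis-type linker histone that belongs to neither class. No entry for H4-16 was analysed here. The choice used names, not values, but it was made with earlier results of these data known.

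The RNA came from LM2-4175, a breast carcinoma line selected from MDA-MB-231 for metastasis to the lung, and every group, the untreated included, carried a doxycycline-inducible construct of CerS4, an enzyme that makes ceramide. Cells were left untreated or received doxycycline at 5 µg/mL over 48 h, and RNA bound to EXOSC10 or recovered with control IgG was sequenced, which gave the groups untreated IgG, untreated EXOSC10, doxycycline IgG and doxycycline EXOSC10 with 1 library each. The study's question concerned mRNA decay tied to a complex of PD-L1 with Caprin-1 under altered lipid metabolism. A difference between 2 of these libraries cannot be set against replicates and carries no p-value. All cells were kept under puromycin and hygromycin. Whether they are 1 clone is not given in the sources used here, and an input library was not analysed here.

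Replication-dependent histone genes are made in S phase and most of their mRNAs end in a conserved stem-loop, bound by SLBP, in place of a poly(A) tail. Some clustered genes also give longer, polyadenylated transcripts. Variant histones come from single genes outside the clusters, have ordinary polyadenylated mRNAs and are made throughout the cell cycle. EXOSC10 is a nuclear exoribonuclease of the RNA exosome, the complex that trims and degrades RNA from its free end. The labels name the material polyA RNA and the library kit as SMARTER mRNA-Seq, and the part that this choice plays for mRNAs without a poly(A) tail was not tested.

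Promoters of 6 members are shown. H2AC18 and H2AC19 had reads that could not be told apart. H2BC21 and H2BC15 are clustered genes far apart in the EXOSC10 comparison. H3-3B and H2AZ1 are the variants with the most reads. Each sequence is the 100 bases before the start site in RefSeq (GRCh38.p14), 5′ to 3′ on the gene's strand. The positions are chr1:149842751-149842850 (minus strand), chr1:149850961-149851060 (plus strand), chr1:149886683-149886782 (minus strand), chr6:27838469-27838568 (plus strand), chr17:75779780-75779879 (minus strand) and chr4:99950276-99950375 (minus strand), in this order. Capitals mark CCAAT or its reverse complement ATTGG and TATAAA or its reverse complement TTTATA.
H2AC18: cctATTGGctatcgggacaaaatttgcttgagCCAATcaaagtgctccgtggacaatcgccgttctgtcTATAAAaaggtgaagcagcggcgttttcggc
H2AC19: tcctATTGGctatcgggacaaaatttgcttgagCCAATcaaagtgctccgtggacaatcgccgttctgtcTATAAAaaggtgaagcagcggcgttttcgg
H2BC21: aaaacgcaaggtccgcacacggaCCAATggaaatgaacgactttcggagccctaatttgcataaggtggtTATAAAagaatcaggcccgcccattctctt
H2BC15: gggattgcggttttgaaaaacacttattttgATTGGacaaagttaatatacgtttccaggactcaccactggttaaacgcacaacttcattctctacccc
H3-3B: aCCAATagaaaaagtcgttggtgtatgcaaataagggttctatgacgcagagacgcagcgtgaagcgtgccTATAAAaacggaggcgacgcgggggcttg
H2AZ1: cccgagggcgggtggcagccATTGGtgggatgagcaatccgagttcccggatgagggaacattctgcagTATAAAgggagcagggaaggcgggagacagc
The promoters of H2AC18 and H2AC19 were identical over 299 of 299 positions when shifted by 1 base, those of H4C14 and H4C15 over 300 of 300, and those of H3C14 and H3C15 over 296 of 296. Over the whole 300-base window on both strands, CCAAT was present in 34 of 40 clustered promoters (85%), in 4 of 7 variant promoters (57.1%) and in 35.7% of 27305 promoters. TATAAA was present in 25 of 40 clustered promoters (62.5%), in 3 of 7 variant promoters (42.9%) and in 11.95% of all. Both were present in 23 of 40 clustered promoters and in 4.84% of all. A match describes letters only, and H4C3 was not matched to a promoter.

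The libraries held 3723739 to 7575389 estimated reads, of which 56.3% to 83.8% lay on ribosomal RNA genes. Histone genes took 7642 reads with IgG and 5681 with EXOSC10 in untreated cells, and 10761 with IgG and 10508 with EXOSC10 after doxycycline, or 0.726%, 0.555%, 0.875% and 0.436% of the reads outside ribosomal RNA. All 8 markers of this carcinoma line had entries, from VIM with 2079.1 to 4396.1 reads per library down to S100A4 with 0 to 22. Of markers of other cells, 2 of 4 for fibroblasts had entries (COL1A1 and COL1A2, with 321 reads together in the 4 libraries), as did 1 of 3 for endothelium (PECAM1, 52 reads), 1 of 3 for luminal cells (PGR, 21.4 reads) and 1 of 9 for blood and immune cells (LYZ, 26 reads). Of the 51 members, 24 had at least 100 reads in the 4 libraries together, 17 of them clustered. The remaining 24 clustered genes had medians of 1.496, 6.80, 2.91 and 18.4 reads in the untreated IgG, untreated EXOSC10, doxycycline IgG and doxycycline EXOSC10 libraries. These medians are not scaled, and the libraries held 1053116, 1023393, 1229786 and 2408268 reads outside ribosomal RNA in the same order. Every entry also reached 10 reads in at least 1 library, so the medians do not compare the libraries.

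Not every read belonged to a single gene. For 23 members, 18 of them clustered, the reads were whole numbers in all 4 libraries within 0.05, and the sums of the others were not whole, as happens when 1 read is split over overlapping genes or several matching positions. H2AC18 held 1.10 times the reads of H2AC19 in every library and H3C14 held 0.686 times those of H3C15, so each of these pairs is a single measurement divided in a fixed proportion. H4C9 lies within the span of H2BC12, and the 16753-base span of H4C15 holds H2AC19 and H3C15. The strand setting is not given in the sources used here, so reads of such overlapping genes are uncertain.

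Clustered genes supplied a small share of the histone reads with IgG and a larger share with EXOSC10. They held 12.5% of histone reads with IgG in untreated cells (95% Clopper-Pearson interval 11.8 to 13.3) and 12.7% with IgG after doxycycline (12.05 to 13.3). With EXOSC10 they held 26.2% in untreated cells (25.02 to 27.3) and 28.9% after doxycycline (28.05 to 29.8). Both EXOSC10 libraries lay above both IgG libraries, and the odds of a clustered read were 2.47 times higher with EXOSC10 in untreated cells (2.26 to 2.71) and 2.80 times higher with doxycycline (2.61 to 3.01). Such a share needs no scaling between libraries. Doxycycline changed the odds by 1.15 times with EXOSC10 (1.07 to 1.23) and 1.01 times with IgG (0.927 to 1.11). These intervals cover counting error only, and the labels do not state whether the libraries are from separate cultures. In bulk RNA, fewer cells that make an mRNA and less of it per cell cannot be told apart.

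The contrast rested on 2 variants with many reads. H3-3B, which encodes the replication-independent H3.3, alone held 54.1% of histone reads with IgG and 40.1% with EXOSC10 in untreated cells, and 51.9% with IgG and 43.1% with EXOSC10 after doxycycline. H2AZ1, which encodes H2A.Z, held 29.0%, 25.5%, 32.2% and 17.4% in the same order. Without H3-3B and H2AZ1 the clustered share was 74.3%, 76.0%, 79.8% and 73.2%, the odds ratio of EXOSC10 over IgG was 1.10 in untreated cells (0.935 to 1.29) and it turned to 0.692 with doxycycline (0.603 to 0.793). The odds ratio of doxycycline then turned to 0.862 with EXOSC10 (0.761 to 0.976) and was 1.37 with IgG (1.15 to 1.63). Without H2AC16 and H3-3B, the clustered gene and the variant with the most reads, doxycycline gave 1.48 with EXOSC10 (1.36 to 1.62) and 1.19 with IgG (1.07 to 1.33). Over members with whole reads only, the odds ratios of EXOSC10 over IgG were 1.58 (1.15 to 2.16) and 1.03 (0.780 to 1.35), and those of doxycycline were 0.827 with EXOSC10 (0.673 to 1.02) and 1.27 with IgG (0.886 to 1.83). The reads of H3-3B and H2AZ1 held fractions, so this set leaves out both of them as well.

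**Figure D1:**
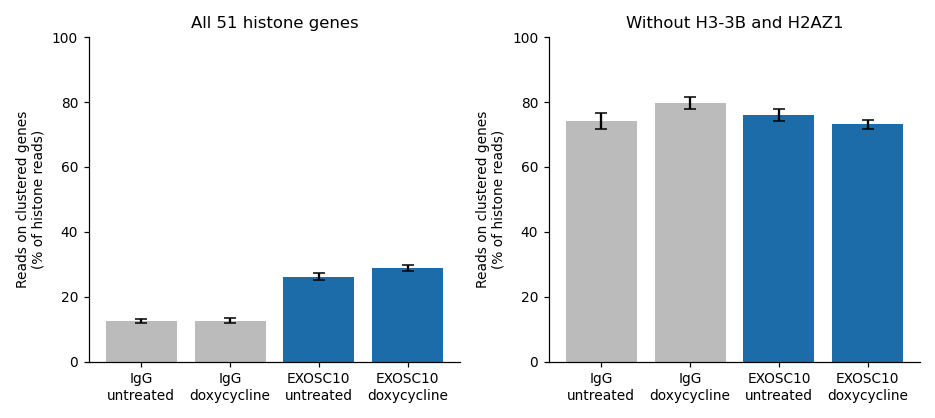
Share of histone reads on clustered genes, in percent of the reads on all 51 members (left) and without H3-3B and H2AZ1 (right), with 1 bar per library and exact 95% binomial intervals. The left bars are 12.5% and 12.7% for IgG against 26.2% and 28.9% for EXOSC10, and the right bars lie between 73.2% and 79.8%.

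Abundant mRNAs in general lay low in the EXOSC10 libraries after TMM scaling (trimmed mean of M values). Among the 252 symbols outside ribosomal RNA with 3000 reads or more, the median log2 ratio of EXOSC10 over IgG was -1.65 in untreated cells and -1.98 with doxycycline, while it was -0.27 and -0.14 among symbols with 300 to 1000 reads. The values of H3-3B and H2AZ1 below stand beside these, and the part that abundance plays in them was not tested.

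The direction between antibodies turned on the scaling. On the TMM scale, both EXOSC10 libraries lay below both IgG libraries for 11 of the 24 members with 100 reads, above them for 1 and between or across them for 12. On CPM as deposited they lay below for 1, above for 16 and overlapped for 7. Scaled to reads outside ribosomal RNA they lay below for 2, above for 13 and overlapped for 9. With the upper quartile they lay below for 10, above for 6 and overlapped for 8, and with median-of-ratios factors for 13, 1 and 10. These orders were counted for members only, without a share over all symbols. Against the TMM scale, CPM as deposited moves every EXOSC10 over IgG log2 ratio up by 0.82 in untreated cells and by 2.49 with doxycycline, and doxycycline over untreated by 1.03 with EXOSC10 and -0.64 with IgG. Scaling to reads outside ribosomal RNA moves EXOSC10 over IgG up by 1.04 and 1.06. H1-10 was above and H2AZ1 below under all of these scalings. Levels given below as scaled CPM, and the order of the libraries in them, are on the TMM scale.

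H3-3B stood at 1578 TMM-scaled CPM with IgG and 434 with EXOSC10 in untreated cells, and 1634 with IgG and 324 with EXOSC10 after doxycycline. The EXOSC10 libraries were both below the IgG libraries, with log2 ratios of -1.86 in untreated cells (-1.94 to -1.79) and -2.34 with doxycycline (-2.39 to -2.28), but on CPM as deposited these were -1.04 and 0.16. H3-3A, the other H3.3 gene, had only 63.5 reads in all and ranged from 1.33 to 5.30 scaled CPM without a separation of the antibodies on this scale.

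H2AZ1 stood at 845 scaled CPM with IgG and 275 with EXOSC10 in untreated cells, and 1014 with IgG and 131 with EXOSC10 after doxycycline. Its deficit with EXOSC10 grew from -1.62 (-1.71 to -1.52) in untreated cells to -2.95 (-3.04 to -2.87) with doxycycline, a change of -1.34 (-1.46 to -1.21), but on CPM as deposited that change was 0.34. H2AZ2, which encodes a near-identical protein, stayed between 10.8 and 14.6 scaled CPM in all 4 libraries, but on CPM as deposited it ranged from 6.196 with IgG to 37.0 with EXOSC10, both after doxycycline.

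H1-10, a linker histone variant, stood at 9.92 scaled CPM with IgG and 17.1 with EXOSC10 in untreated cells, and 3.804 with IgG and 18.01 with EXOSC10 after doxycycline. Both EXOSC10 libraries lay above both IgG libraries, with log2 ratios of 0.78 (0.15 to 1.48) and 2.19 (1.44 to 3.17). Only 26 and 13 reads were behind the IgG values.

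MACROH2A1, the macroH2A gene with most reads here, stood at 32.0 scaled CPM with IgG and 18.5 with EXOSC10 in untreated cells, and 25.2 with IgG and 18.1 with EXOSC10 after doxycycline. It lay lower with EXOSC10 by -0.79 and -0.47 (log2), and the direction turned to 0.022 and 1.997 on CPM as deposited and to 0.25 and 0.58 when scaled to reads outside ribosomal RNA. MACROH2A2 had 11 reads in the untreated EXOSC10 library and none in the other 3. H1-7 had 27 reads, all in the doxycycline EXOSC10 library.

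H2AX, whose protein is phosphorylated at DNA breaks, stood at 58.5 scaled CPM with IgG and 28.7 with EXOSC10 in untreated cells, and 48.1 with IgG and 17.7 with EXOSC10 after doxycycline. Both EXOSC10 values were below both IgG values, with log2 ratios of -1.02 (-1.36 to -0.69) and -1.43 (-1.73 to -1.15), although the first was 0.019 when scaled to reads outside ribosomal RNA and the second was 1.04 on CPM as deposited. H2AX overlaps DPAGT1. H2AJ, an H2A variant outside the clusters, lay between 6.67 and 8.01 scaled CPM in all 4 libraries, and its EXOSC10 over IgG ratio with doxycycline was -0.020 on this scale and 2.41 on CPM as deposited.

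**Figure D2:**
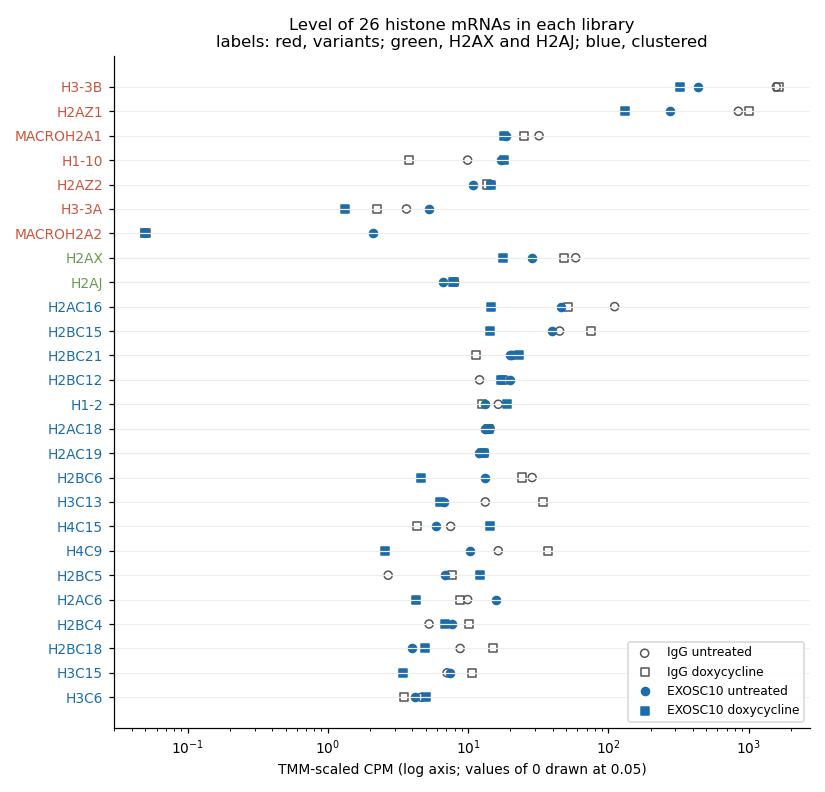
Level of the 7 variants, of H2AX and H2AJ and of the 17 clustered genes with at least 100 reads, in TMM-scaled CPM on a log axis, with 1 point per library. H3-3B, H2AZ1 and H2AC16 show both EXOSC10 points (filled) left of both IgG points (open), while H1-10 shows them to the right. This order is lost for H3-3B only on CPM as deposited, and for H2AC16 there and when scaled to reads outside ribosomal RNA. Their log2 ratios with doxycycline were 0.16 and 0.68 on CPM as deposited.

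Clustered genes were not of a piece. H2AC16, an H2A gene of chromosome 6, stood at 111 scaled CPM with IgG and 46.1 with EXOSC10 in untreated cells, and 51.3 with IgG and 14.7 with EXOSC10 after doxycycline. It was lower with EXOSC10 in both treatments (-1.26, -1.52 to -1.02, and -1.79, -2.11 to -1.51), the latter turning to 0.68 on CPM as deposited, and lower with doxycycline in both antibodies (-1.64, -1.93 to -1.38, for EXOSC10 and -1.11, -1.39 to -0.84, for IgG). H2BC15, an H2B gene of the same chromosome 6 cluster, had another pattern. It stood at 44.9, 39.8, 74.95 and 14.3 scaled CPM in the same order, so untreated EXOSC10 and IgG were close and only the doxycycline EXOSC10 library was low, with a change of enrichment of -2.20 (-2.62 to -1.78). On CPM as deposited it stood at 31.6, 49.3, 33.8 and 36.3, where the doxycycline EXOSC10 library was not low and the change was -0.54.

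H2BC6 stood at 28.6 scaled CPM with IgG and 13.1 with EXOSC10 in untreated cells, and 24.3 with IgG and 4.65 with EXOSC10 after doxycycline, so that the antibodies did not overlap on this scale. They overlapped on CPM as deposited, at 20.1 and 10.9 with IgG and 16.3 and 11.8 with EXOSC10. H3C13 was high in the doxycycline IgG library, at 34.4 scaled CPM against 13.3, 6.70 and 6.26 in the untreated IgG, untreated EXOSC10 and doxycycline EXOSC10 libraries, but on CPM as deposited the doxycycline IgG and EXOSC10 libraries were level, at 15.5 and 15.9. H4C9 was also highest in the doxycycline IgG library, at 37.4 scaled CPM against 16.4, 10.3 and 2.57, and remained so on CPM as deposited, at 16.9 against 11.5, 12.8 and 6.53. The reads of all 5 of these genes held fractions.

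On the other side, H2BC21, an H2B gene of chromosome 1 with a 2224-base span, stood at 20.6, 19.8, 11.4 and 23.1 scaled CPM in the order untreated IgG, untreated EXOSC10, doxycycline IgG and doxycycline EXOSC10. The doxycycline IgG library was the low one, which gave a log2 ratio of EXOSC10 over IgG of 1.01 (0.54 to 1.54) with doxycycline and -0.06 (-0.54 to 0.45) without. H4C15 stood at 7.505, 5.87, 4.35 and 14.4 scaled CPM, the doxycycline EXOSC10 library being highest, but its span holds H2AC19 and H3C15. H1-2, the only linker histone of the clusters with 100 reads, had whole reads and stood at 16.4, 13.1, 12.6 and 18.9 scaled CPM, with overlapping antibodies, though on CPM as deposited EXOSC10 lay above IgG in both treatments (0.49 and 3.04). H2AC18 and H2AC19 together were almost level, at 27.5, 25.1, 26.3 and 27.01 scaled CPM, but not on CPM as deposited, at 19.3, 31.2, 11.9 and 68.6.

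H2AC6, with whole reads, stood at 9.92 scaled CPM with IgG and 15.8 with EXOSC10 in untreated cells, and 8.78 with IgG and 4.22 with EXOSC10 after doxycycline. The 2 EXOSC10 libraries were its highest and its lowest, a log2 ratio of -1.86 (-2.41 to -1.41), while on CPM as deposited that ratio was -0.86 and both lay above the IgG libraries. H2BC12 and H2BC5 were lowest in the untreated IgG library (12.1 and 2.69 scaled CPM) and reached 19.8 and 12.1 in their highest. H2BC18 overlaps FCGR1A and was highest with IgG and doxycycline (15.2 scaled CPM). H2BC4 and H3C6 ranged from 5.27 to 10.1 and from 3.51 to 5.00 scaled CPM, with the antibodies overlapping. H3C14 and H3C15 together stood at 11.9, 12.5, 18 and 5.75, lowest in the doxycycline EXOSC10 library. On CPM as deposited, H2BC12 was lowest with IgG and doxycycline, H2BC18 was highest in the doxycycline EXOSC10 library, the EXOSC10 libraries of H2BC4 and H3C6 lay above their IgG libraries, and H3C14 and H3C15 together were lowest with IgG and doxycycline.

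The summed clustered genes were lower with EXOSC10 on the TMM scale and higher on CPM as deposited and when scaled to reads outside ribosomal RNA. Their sum was 365 scaled CPM with IgG and 283 with EXOSC10 in untreated cells, and 399 with IgG and 217 with EXOSC10 after doxycycline. The log2 ratio of EXOSC10 over IgG was -0.37 (-0.49 to -0.25) in untreated cells and -0.88 (-0.97 to -0.78) with doxycycline, against medians over all symbols of -0.48 and 0.02. It was 0.45 and 1.62 on CPM as deposited, where the medians were 0.33 and 2.47, and 0.68 and 0.19 when scaled to reads outside ribosomal RNA. The summed variants were at -1.70 (-1.76 to -1.64) and -2.41 (-2.46 to -2.37), and the latter was 0.081 on CPM as deposited. The difference of the classes does not depend on scaling and was 1.33 (1.20 to 1.46) and 1.53 (1.43 to 1.64) in favour of the clustered genes. Without H3-3B and H2AZ1 it was -0.21 (-0.51 to 0.10) and -1.09 (-1.36 to -0.82).

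By histone family on the TMM scale, the summed clustered H1 genes had an EXOSC10 over IgG ratio with doxycycline of 0.51 (0.07 to 0.97), against -0.77 (-0.96 to -0.57) for H2A, -1.004 (-1.14 to -0.87) for H2B, -1.31 (-1.57 to -1.05) for H3 and -0.84 (-1.11 to -0.57) for H4. In untreated cells the same families lay between -0.65 and -0.04. The H1 genes had 49 reads with IgG and 285 with EXOSC10 after doxycycline, of which H1-2 held 43 and 265, and all were whole. The 15 clustered core histone genes with whole reads were at 0.23 (-0.14 to 0.62) with doxycycline. H1 minus these was 0.28 (-0.30 to 0.85) there, an interval that includes 0, but -1.23 (-1.91 to -0.54) in untreated cells. For doxycycline over untreated, H1 minus these was 1.03 (0.59 to 1.47) with EXOSC10 and -0.48 (-1.25 to 0.30) with IgG. For the change of enrichment, the interval of H1 minus these was 0.61 to 2.39. By position, the 15 genes of the chromosome 6 cluster nearer the centromere were lowest, at -1.73 (-1.88 to -1.59), against -0.17 (-0.37 to 0.03) for the 17 genes of the other chromosome 6 cluster and -0.41 (-0.58 to -0.24) for the 9 genes of chromosome 1. Most reads of the lowest cluster came from few genes with fractions of reads. H2AC16, H2BC15 and H4C9 held 175.5, 256.2 and 127.7 of its 710.8 reads with IgG and doxycycline.

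Clustered genes with whole reads and clustered genes with divided reads went apart. The 18 clustered genes with whole reads, each with a span of at most 1000 bases, summed to 37.4, 52.4, 35.1 and 44.7 scaled CPM in the order untreated IgG, untreated EXOSC10, doxycycline IgG and doxycycline EXOSC10. Both EXOSC10 sums lay above both IgG sums, with log2 ratios of 0.49 (0.15 to 0.83) and 0.35 (0.07 to 0.64). The 15 genes of that span with fractions of reads, H2AC16, H2BC15 and H2BC6 among them, summed to 265, 160, 291 and 83.9, with log2 ratios of -0.73 (-0.87 to -0.58) and -1.79 (-1.92 to -1.67). With doxycycline the groups differed by 2.14 (1.84 to 2.45) whatever the scaling. Every entry reached 10 reads in at least 1 library, and most of the 18 genes with whole reads did so only with EXOSC10. The part that this minimum plays in their EXOSC10 over IgG ratios and in the difference was not tested. The 8 clustered genes with longer spans, whose reads also held fractions, were at 0.17 (-0.10 to 0.45) and 0.27 (0.08 to 0.48). Over all symbols with 100 reads outside ribosomal RNA, the median with doxycycline was 0.06 for whole reads and -0.05 for fractions. In untreated cells these medians were -0.29 and -0.79, so fractions lay lower there over all symbols too. These splits were made after the values had been seen, and the part that divided reads play was not tested.

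**Figure D3:**
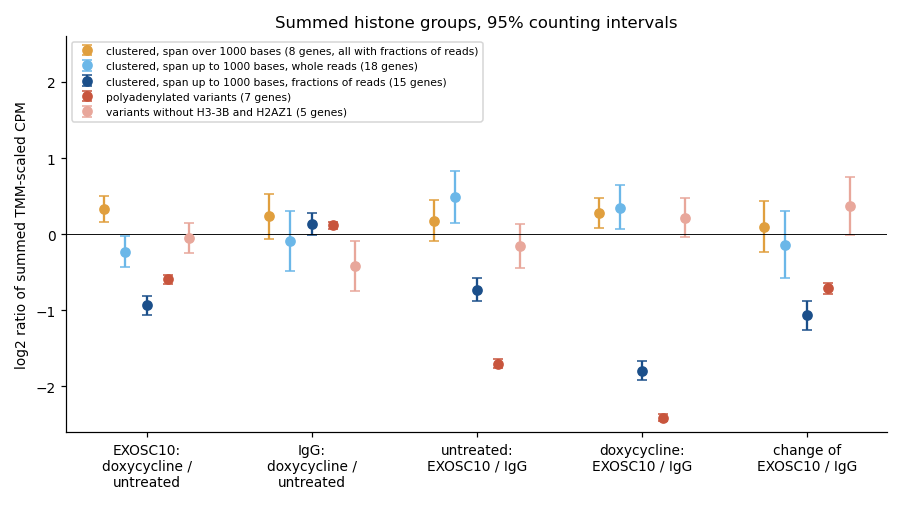
Log2 ratio of summed TMM-scaled CPM in the 4 comparisons and for the change of enrichment, for clustered genes by span and kind of reads and for the variants, with 95% counting intervals. With doxycycline, EXOSC10 over IgG was -1.79 for short-span clustered genes with fractions of reads and -2.41 for the variants. The other groups were at 0.35, 0.27 and 0.21. CPM as deposited moves every group up by 2.49, the variants to 0.081, and leaves the differences between groups as they are.

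For EXOSC10 over IgG in untreated cells, 13 members had at least 100 reads, of which 0 were at least 2-fold higher (4.94% of all symbols) and 5 at least 2-fold lower (36.7% of all symbols). The 5 were H2AC16, H2AX, H2AZ1, H2BC6 and H3-3B, and the members' median was -0.32 against -0.48 over all. With doxycycline, 3 of 21 were higher (13.4% of all), namely H1-10, H2BC21 and H4C15, and 9 were lower (26.9% of all), namely H2AC16, H2AX, H2AZ1, H2BC15, H2BC18, H2BC6, H3-3B, H3C13 and H4C9. The median was -0.47 against 0.02. On the TMM scale the untreated counts stood near the background and the lower count with doxycycline above it. On CPM as deposited the counts were 3 higher and 1 lower in untreated cells and 13 and 1 with doxycycline. Scaled to reads outside ribosomal RNA they were 3 and 0, and 10 and 6. The median of all symbols with doxycycline was itself 2.47 and 1.07 on these scales, both past 2-fold higher. Shares over all symbols are not given for them. Called lower with doxycycline were 0 of 4 members with whole reads and 9 of 17 with fractions, against 22.4% and 31.8% of all symbols of these kinds outside ribosomal RNA.

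**Figure D4:**
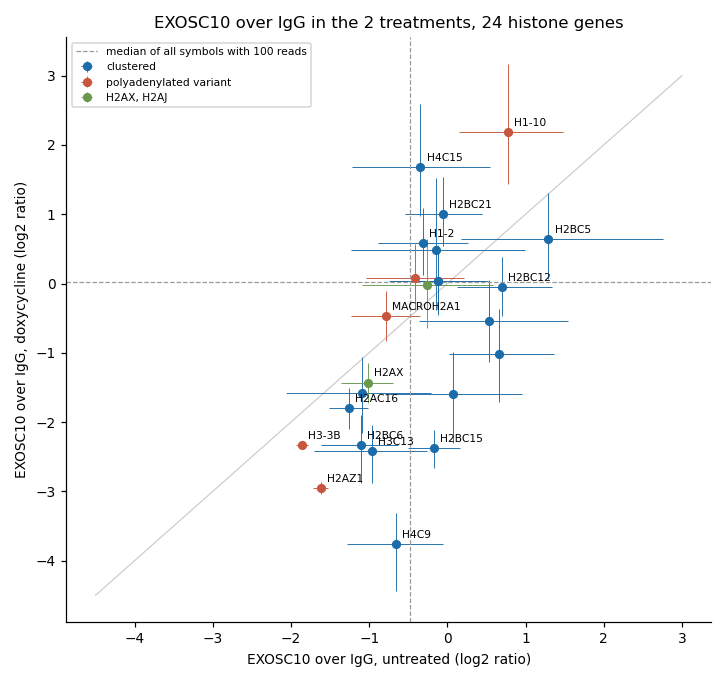
Log2 ratio of EXOSC10 over IgG in untreated cells (x axis) and with doxycycline (y axis) for the 24 members with at least 100 reads, with 95% counting intervals and dashed lines at the medians of all symbols, -0.48 and 0.02, on the TMM scale. H3-3B, H2AZ1 and H2AC16 lie at the lower left, H1-10 at the upper right, and H2BC15 and H4C9 well below the diagonal. With doxycycline on CPM as deposited, H3-3B and H2BC15 turn to 0.16 and 0.10, but the median of all symbols is then 2.47.

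A test over all 4 libraries set the antibodies against each other with treatment as covariate, so that the treatments stood in for replicates and 1 residual degree of freedom was left. In this limma fit with Benjamini-Hochberg adjustment over 9594 symbols, 7 of 33 members tested fell with EXOSC10 (16.2% of all symbols) and 0 rose (1.28% of all), with 12 at an unadjusted p under 0.05. H2AZ1 fell by 2.28 ± 0.37 (SE, adjusted p = 0.00305, limma), H3-3B by 2.10 ± 0.35 (adjusted p = 0.00362, limma) and H2AC16 by 1.53 ± 0.27 (adjusted p = 0.00497, limma). The others were H2AX, H2BC6, H3C13 and H4C9, with adjusted p between 0.0158 and 0.0485 in limma. H1-10 was 1.48 ± 0.46 higher with an adjusted p of 0.0619 in limma and was not called. The members' median was -0.14 against 0.19 over all symbols. With either EXOSC10 library left out, 0 members were called, and on CPM as deposited 2 rose and 0 fell.

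For the study's primary comparison, EXOSC10-bound RNA with and without doxycycline, 20 members had at least 100 reads. H4C15 was at least 2-fold higher (5.85% of all symbols) at 1.27 (0.75 to 1.90). Lower by at least 2-fold were 5 (4.15% of all symbols): H2AC6, H2AC16, H2BC15 and H2BC6, at -1.86, -1.64, -1.47 and -1.46, and H2AZ1 at -1.07. The median was -0.063 against -0.054 over all. On CPM as deposited, where the median of all symbols was 0.97, 9 were higher and 0 lower. The summed clustered genes were at -0.38 (-0.47 to -0.29) and the variants at -0.59 (-0.65 to -0.54), and these became 0.65 and 0.44 on CPM as deposited.

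With IgG, 9 members had at least 100 reads, and doxycycline gave 2 higher (2.78% of all symbols), H3C13 at 1.36 (0.82 to 1.964) and H4C9 at 1.18 (0.68 to 1.72), and 1 lower (3.7% of all symbols), H2AC16. The median was 0.05 against -0.07 over all. The clustered sum was at 0.13 (0.01 to 0.25) and the variant sum at 0.12 (0.07 to 0.16), and these became -0.51 and -0.52 on CPM as deposited. H2AC16 was the member lower with doxycycline with both antibodies.

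**Figure D5:**
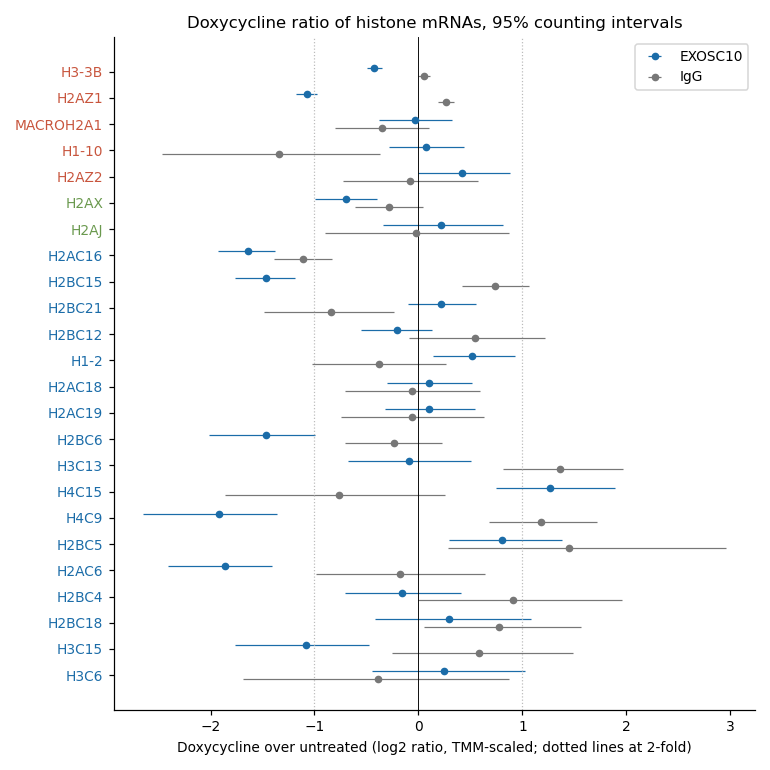
Log2 ratio of doxycycline over untreated for the 24 members with at least 100 reads, with EXOSC10 in blue and IgG in grey, 95% counting intervals and dotted lines at 2-fold, on the TMM scale. H2AC16 lies left of the lower dotted line with both antibodies (-1.64 and -1.11), while H4C9 lies left with EXOSC10 (-1.92) and right with IgG (1.18). The EXOSC10 ratio of H4C9 rests on fewer than 100 reads. On CPM as deposited the values for EXOSC10 and IgG were -0.62 and -1.74 for H2AC16 and -0.94 and 0.54 for H4C9.

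The change of enrichment, the EXOSC10 over IgG ratio with doxycycline minus that without, could be given for 8 members with 100 reads in each antibody's libraries. Of these, 0 were at least 2-fold higher (4.75% of all symbols), and the 4 genes H2AZ1, H2BC15, H2BC6 and H3C13 were lower (10.9% of all symbols), but on CPM as deposited 4 were higher and 0 lower. The TMM median was -0.88 against -0.14 over all, and on CPM as deposited the median over all was 1.52. An additive limma test of doxycycline with Benjamini-Hochberg adjustment called 0 members and 0 of 9594 symbols (0% each way), with 2 members and 449 symbols at an unadjusted p under 0.05 and a smallest adjusted p of 0.844 in limma.

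The genes that process and degrade histone mRNA were all present, 21 of 21. At 2-fold, 2 were higher (5.85% of all symbols) and 2 lower (4.15% of all) of 17 with 100 reads for EXOSC10 with doxycycline, with a median of -0.19 against -0.05 over all symbols, and 1 was higher (13.4% of all) and 3 lower (26.9% of all) of 15 for EXOSC10 over IgG with doxycycline. In limma on the TMM scale, 3 of 21 fell with EXOSC10 (16.2% of all): PPP2CA, a catalytic subunit of protein phosphatase 2A with 9874.5 reads, SYMPK, a scaffold of the cleavage complex, and TUT4, a uridylyl transferase. UPF1, the helicase that starts histone mRNA decay with SLBP, and CPSF1, a cleavage factor subunit, had log2 ratios of EXOSC10 over IgG of 0.45 and 0.11 in untreated cells and 0.40 and 1.17 with doxycycline. SLBP itself, looked up after the values were seen, had 29, 84, 24 and 88 reads in the order untreated IgG, untreated EXOSC10, doxycycline IgG and doxycycline EXOSC10, a log2 ratio of -1.32 with doxycycline for EXOSC10.

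Histone chaperones, 20 of 20 with an entry, counted 1 higher (13.4% of all symbols) and 6 lower (26.9% of all) of 19 for EXOSC10 over IgG with doxycycline, with a median of -0.35 against 0.02 over all symbols. In limma on the TMM scale, 5 of 19 fell with EXOSC10 (16.2% of all): ASF1A, HIRA, NAP1L1, RBBP4 and SUPT6H. NAP1L1, which carries H2A and H2B, was at -1.37 in untreated cells and -1.67 with doxycycline, and RBBP4, a subunit of chromatin assembly factor 1, was at -1.43 and -1.71. The FACT subunits SUPT16H and SSRP1 were at -0.18 and 0.30 in untreated cells. S phase genes, 23 of 24 with an entry, had a median of 0.31 for EXOSC10 over IgG with doxycycline, with 5 higher (13.4% of all symbols) and 2 lower (26.9% of all) of 18, and a median of 0.04 for EXOSC10 with doxycycline over untreated. In limma on the same scale 1 of 21, RRM1, rose (1.28% of all) and 1, MCM4, fell with EXOSC10 (16.2% of all), and MCM4, MCM3, MCM7 and CDK2 were at -1.49, -0.52, 0.30 and -1.26 with doxycycline.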

How the data were processed

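The authors deposited CPM, reads scaled to the same total in each column, apart from a constant of 0.0001 per entry, which was taken off. STAR, Partek and hg38 are named per the submitters' processing notes, without versions. The counting rule is not given in the sources used here. Every entry reached 10 reads in at least 1 library. Entries of a symbol were summed (24015 entries, 70 of members). Reads were estimated from the CPM step worth 1 read (0.132 to 0.269), and 66.8% to 72.1% of symbols per library held whole reads within 0.05, so no count model was used, although one had been planned for whole counts. No column belonged to other samples.

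Ratios are log2 of TMM-scaled CPM (trim 30% and 5%) with a pseudocount of 0.2 for single genes and none for sums. A ratio understates the change of low genes. Intervals are 95% Clopper-Pearson on estimated reads, or from summed reciprocal reads for differences and odds ratios, and cover counting error only. Reads divided between genes are not independent. A member was counted at 2-fold with 100 reads in the libraries compared. The limma tests (limma 3.58.1, R 4.3.3, mean-variance trend, adjusted p under 0.05) took symbols with 10 reads in at least 2 libraries. Other steps used Python 3.11.15, pandas 2.3.3 and scipy 1.17.1, and were tested on simulated data.

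Named were all variants, H2AX, H2AJ, clustered genes with 100 reads in all, and up to 4 genes of each list by reads. The members and lists were chosen with earlier results of these data known. All 51 members matched RefSeq. A further gene was left out of the members, their counts and their sums and is not reported here. Alternatives were 4 other scalings, other pseudocounts, read minimums and class members, no covariate and each library left out.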

Additional observations from a re-analysis of the deposited data

Results flagged for a closer look

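H4C9, an H4 gene of chromosome 6, had doxycycline over untreated log2 ratios on opposite sides with the antibodies, -1.92 with EXOSC10 and 1.18 with IgG. The difference was not tested, since each ratio compares 2 single libraries. H4C9 held 54 and 36 reads in the untreated and doxycycline EXOSC10 libraries and 43 and 127.7 in the IgG libraries. The EXOSC10 libraries together were below the minimum of 100 reads used for the counts. On CPM as deposited the ratios were -0.94 with EXOSC10 and 0.54 with IgG, neither at 2-fold. It lies within the span of H2BC12, and its reads held fractions.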

How the results depend on the processing

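No paired analysis by replicate was possible because each group has 1 library and the labels carry no replicate numbers. The limma test of antibody sets EXOSC10 beside IgG within each treatment through its covariate, and without the covariate it also called 7 members lower and 0 higher. In all, 106 of the summary values and 276 of the single-gene values were counted as unchanged, 106 and 190 as moved, and 3 and 13 as reversed. Class sums were counted as unchanged where they stayed within the counting interval. A moved value could keep its direction or change it. With EXOSC10, doxycycline over untreated for H2AC16 moved from -1.64 to -1.46 when scaled to reads outside ribosomal RNA. That of the clustered sum moved from -0.38 to 0.65 on CPM as deposited. In 31 further combinations of gene and alternative a call in limma was lost, that of H4C9 already with a pseudocount of 0.5 CPM (adjusted p = 0.0534). The cause was not tested except where fewer members or libraries were used.

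For the clustered sums, EXOSC10 with doxycycline over untreated was 0.65 on CPM as deposited, -0.20 scaled to reads outside ribosomal RNA, -0.28 with the upper quartile, -0.49 with median-of-ratios factors, -0.23 without H2AC16 and -0.23 with whole reads only. IgG with doxycycline over untreated was -0.51 on CPM as deposited, 0.29 outside ribosomal RNA, 0.45 without H2AC16 and -0.091 with whole reads. EXOSC10 over IgG in untreated cells was 0.45, 0.68, -0.21 with the upper quartile, -0.10 without H2AC16 and 0.49 with whole reads. With doxycycline it was 1.62, 0.19, -0.66, -0.78 and 0.35 in that order. The change of enrichment was 1.17 on CPM as deposited, -0.68 without H2AC16 and -0.14 with whole reads.

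For the variant sums, EXOSC10 with doxycycline over untreated was 0.44 on CPM as deposited, -0.41 outside ribosomal RNA, -0.49 with the upper quartile, -0.70 with median-of-ratios factors, -0.85 without H3-3B, -0.064 with whole reads and -0.051 without H3-3B and H2AZ1. IgG with doxycycline over untreated was -0.52 on CPM as deposited, 0.28 outside ribosomal RNA, 0.23 without H3-3B, -0.53 with whole reads and -0.42 without both genes. EXOSC10 over IgG in untreated cells was -0.88, -0.66, -1.54 with the upper quartile, -1.46 without H3-3B, -0.15 with whole reads and -0.16 without both genes. With doxycycline it reversed to 0.081 on CPM as deposited, 0.32 with whole reads and 0.21 without both genes, and was -1.35 outside ribosomal RNA, -2.19 with the upper quartile, -2.49 with median-of-ratios factors and -2.53 without H3-3B. The change of enrichment was 0.97 on CPM as deposited, -0.78 with median-of-ratios factors, -1.08 without H3-3B, 0.47 with whole reads and 0.37 without both genes. The sums with whole reads also lack H3-3B and H2AZ1, whose reads held fractions. Leaving out both genes, and the splits by span, kind of reads and H1 against core histones with whole reads, were chosen after seeing the data.

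The clustered share in the untreated IgG, untreated EXOSC10, doxycycline IgG and doxycycline EXOSC10 libraries was 20.7%, 39.4%, 23.8% and 49.1% without H2AC16 and H3-3B, 42.8%, 54.1%, 48.8% and 49.4% with whole reads, and 74.3%, 76.0%, 79.8% and 73.2% without H3-3B and H2AZ1.

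On CPM as deposited, members at 2-fold numbered 9 higher and 0 lower for EXOSC10 with doxycycline, 0 higher for IgG with doxycycline, 3 higher and 1 lower for EXOSC10 over IgG untreated, 13 higher and 1 lower with doxycycline, and 4 higher and 0 lower for the change of enrichment. The medians over all symbols were then 0.97, -0.70, 0.33, 2.47 and 1.52 in that order. Outside ribosomal RNA, 0 were lower for IgG with doxycycline, 3 were higher and 0 lower for EXOSC10 over IgG untreated and 10 higher with doxycycline. With the upper quartile, 3 were lower for EXOSC10 over IgG untreated. With a minimum of 20 reads the counts were 9 higher and 12 lower, 4 higher and 2 lower (IgG), 2 higher and 8 lower (untreated), 8 higher and 14 lower (EXOSC10 over IgG with doxycycline), and 3 higher and 10 lower for the change. With 500 reads they were 0 higher and 1 lower, 0 and 0 (IgG), 3 lower (untreated), 0 and 2 (EXOSC10 over IgG with doxycycline), and 1 lower for the change. Shares over all symbols are not given here for these scalings and minimums, so the counts cannot be set against a background.

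In the limma test of antibody, 2 members rose and 0 fell on CPM as deposited and 6 rose and 2 fell outside ribosomal RNA. The shares over all symbols under these scalings are not given here. With the upper quartile, with a pseudocount of 1 CPM and with no filter on low values, 1 rose in each. Leaving out 1 library at a time, without the covariate, gave 0 to 1 higher and 0 to 8 lower. In the limma test of doxycycline with no filter, 1 fell.

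Single values reversed on CPM as deposited. For EXOSC10 over IgG with doxycycline the reversed values were H2AC16 at 0.68, H2AX at 1.04, H2BC15 at 0.10, H2BC18 at 0.86, H2BC6 at 0.11, H3-3B at 0.16 and H3C13 at 0.034. For the change of enrichment they were H2AZ1 at 0.34, H2BC6 at 0.41 and H3C13 at 0.20, and in limma H2AC16 at 0.12 (adjusted p = 0.959) and H2AX at 0.42 (adjusted p = 0.839). H2AX in untreated cells was 0.019 outside ribosomal RNA. With no entry for H4-16, counting it with the clustered genes was the same as counting H2AX and H2AJ with the variants, and no clustered gene with a span over 1000 bases held whole reads.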
